A study of Mus musculus with 12 samples.

Results

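The NAD-consuming enzymes other than Cd38 were examined as a group of 10 genes of the 20614 in the expression table: the sirtuins Sirt1, Sirt2, Sirt3, Sirt5, Sirt6 and Sirt7, the poly(ADP-ribose) polymerases Parp1 and Parp2, the NAD glycohydrolase Sarm1, and Nnmt. They were taken by gene name, and all 10 were found. RNA was sequenced in 12 libraries of midbrain astrocytes, captured on ACSA-2 beads, of male mice aged 12 to 14 months. The mice were of the C57BL/6J background and differed in Cd38, which was intact in the 3 Cd38+/+ libraries, disrupted on one allele in the 3 Cd38+/- libraries and disrupted on both in the 6 Cd38-/- libraries. The disrupted allele is global, so every cell of these mice carries it and not astrocytes alone. The dissected tissue held striatum, thalamus and substantia nigra together, and endothelial cells, myelin and CD11b+ cells were depleted before the ACSA-2 step.

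NAD carries electrons in metabolism, and it is also broken down by enzymes that release nicotinamide from it. Sirtuins use it to remove acyl groups from proteins, PARPs build ADP-ribose chains from it at broken DNA, and Sarm1 and Cd38 cleave it outright. Nnmt methylates nicotinamide, the common product, and so acts one step after the consumers and on no NAD itself. The comparisons ask whether transcripts of the remaining enzymes were higher or lower where Cd38, itself a large consumer of NAD, was reduced or lost.

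Expression is given in TPM, which is scaled to transcript length and so can be compared between genes. Each library has the same sum, so the depth behind a value is unknown. Cd38 held 105, 120 and 149 TPM in the Cd38+/+ libraries, 90.4, 90.7 and 90.8 TPM in Cd38+/- and 8.54 to 21.9 TPM in Cd38-/-. All 10 astrocyte markers had a mean above 5 TPM in each genotype. The Cd38+/+ libraries stood apart: 13160 to 13516 genes were above 0 TPM in them, against 15920 to 17906 in the other 9. Of 11201 genes with a mean above 5 TPM in both mutant genotypes they listed 97 to 207 at 0, against 0 to 3 in any mutant library. They also differed among themselves. Over these genes, Pearson's r of log2(TPM + 1) was 0.815 to 0.839 between Cd38+/+ libraries. It was 0.857 to 0.912 between Cd38+/+ and mutant libraries, and 0.946 to 0.983 between mutant libraries. The labels name replicates but not separate animals, so p-values measure the spread between these libraries, which may be technical.

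The upstream stretches of 3 members are shown first, because Parp1 and Sirt5 were the tested members whose Cd38-/- and Cd38+/+ libraries did not overlap and Sirt2 was the most abundant member. Each line runs from 250 to 40 bases before the RefSeq start on the plus strand of GRCm38.p6, with capitals for any match on either strand to 4 short motifs that factors are known to read. The GC box was searched as GGGCGG, the CCAAT box by the letters of its name, the core of ETS factor sites as CGGAAG, and the E-box, which basic helix-loop-helix factors bind, as CACGTG. The motifs do not overlap in these stretches.
Parp1, chr1:180568641-180568851: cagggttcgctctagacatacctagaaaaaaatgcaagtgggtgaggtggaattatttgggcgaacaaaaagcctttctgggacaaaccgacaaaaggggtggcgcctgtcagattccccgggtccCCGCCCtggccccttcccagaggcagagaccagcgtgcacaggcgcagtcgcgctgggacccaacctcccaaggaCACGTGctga
Sirt5, chr13:43365285-43365495: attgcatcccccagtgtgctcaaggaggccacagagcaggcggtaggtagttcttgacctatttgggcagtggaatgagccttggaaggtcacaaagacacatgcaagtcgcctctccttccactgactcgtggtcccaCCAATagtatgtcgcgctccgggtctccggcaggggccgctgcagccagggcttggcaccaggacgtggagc
Sirt2, chr7:28766502-28766712: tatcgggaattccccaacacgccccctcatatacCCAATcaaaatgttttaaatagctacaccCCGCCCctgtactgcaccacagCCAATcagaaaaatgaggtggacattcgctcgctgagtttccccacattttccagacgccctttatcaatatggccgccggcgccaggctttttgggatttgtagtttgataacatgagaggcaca
The Parp1 stretch held 1 GC box, 124 bases before the start and in reverse, and 1 E-box at 49 bases. The Sirt5 stretch held 1 CCAAT box at 111 bases. In the Sirt2 stretch there were 2 CCAAT boxes, at 216 and 165 bases, with 1 reversed GC box at 187 bases between them. Among 32851 promoter windows of the same length, 26.9% held the GC box, 30% the CCAAT box, 10.2% the ETS core and 4.7% the E-box, so the E-box was the least common of them. GC content was 58.3% for Parp1, 59.7% for Sirt5 and 48.8% for Sirt2, against a median of 51.7% over all windows. A match is a run of letters and not a site shown to be bound.

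None of the 8 tested members passed the test in any comparison. A gene was tested where its mean exceeded 5 TPM in at least 1 of the compared genotypes, and it was called where limma gave a q under 0.05 together with a change of 1.2-fold or more on the log2(TPM + 1) scale. Sarm1 and Nnmt stayed under 5 TPM in every genotype and were not tested. For Cd38-/- against Cd38+/+, 0 of 8 members were called where 8.28% of all genes tested were. For Cd38+/- against Cd38+/+, 0 of 8 were called with 0% of all genes, and for Cd38-/- against Cd38+/-, 0 of 8 with 0.0346% of all genes. At an unadjusted p under 0.05, 3 of 8 members stood out in Cd38-/- against Cd38+/+ (23.6% of all genes did), and 0 of 8 in the other 2 comparisons (13.5% and 11.2% of all genes). The comparisons against Cd38+/+ share the same 3 control libraries. As a median, the 8 members had a log2 fold change of 0.12 for Cd38+/- against Cd38+/+, beside 0.18 over all genes tested, 0.10 beside 0.15 for Cd38-/- against Cd38+/+, and 0.04 beside -0.02 between the mutant genotypes.

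**Figure D1:**
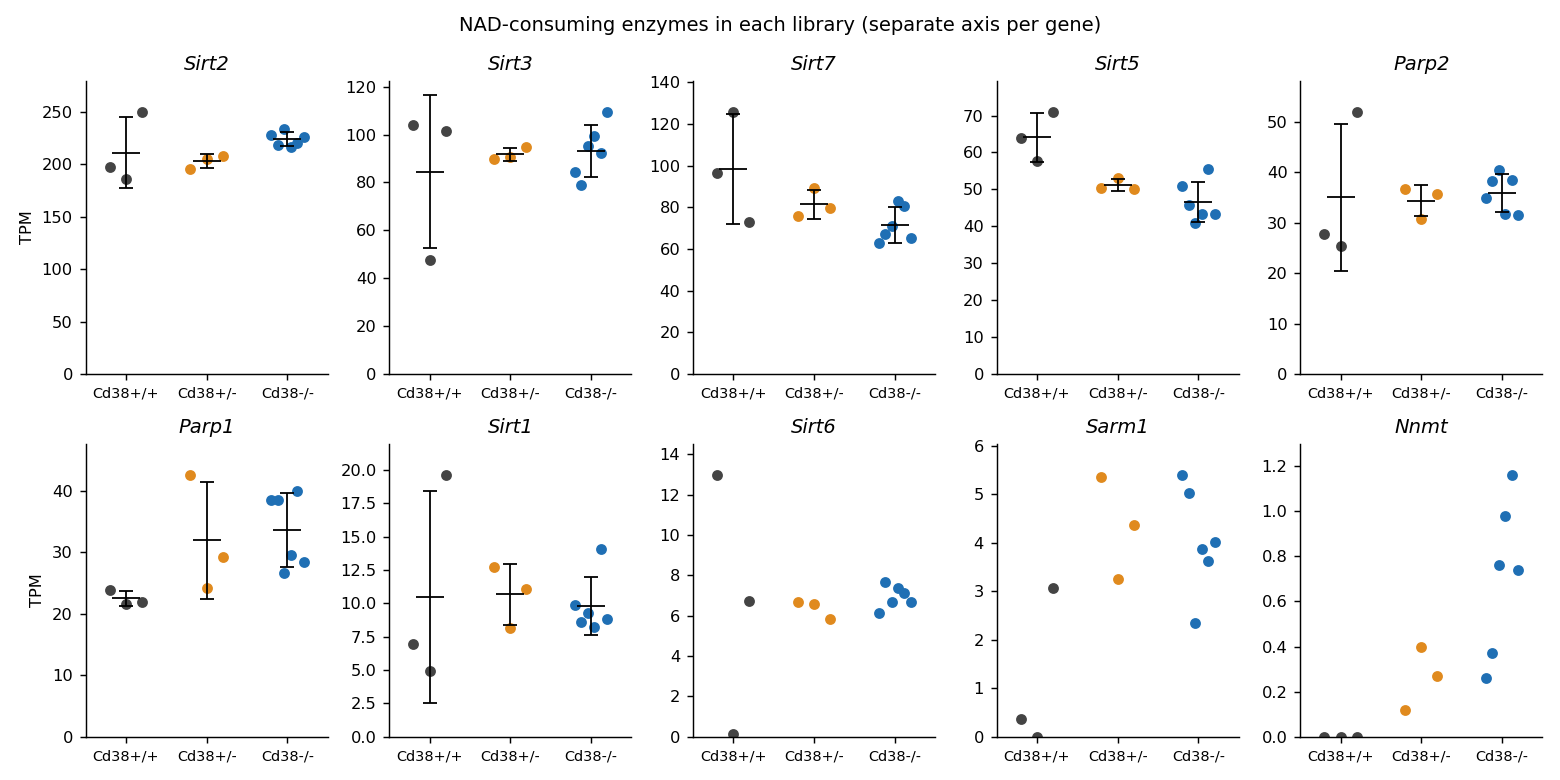
TPM of each of the 10 members (separate vertical axis for each gene, from 0) in every library of Cd38+/+ (n = 3), Cd38+/- (n = 3) and Cd38-/- (n = 6); bars give the mean ± SD, left out for Sirt6, Sarm1 and Nnmt, which have a Cd38+/+ library at or near 0. All Cd38+/+ libraries lie above the mutant libraries in Sirt5 and below them in Parp1.

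**Figure D2:**
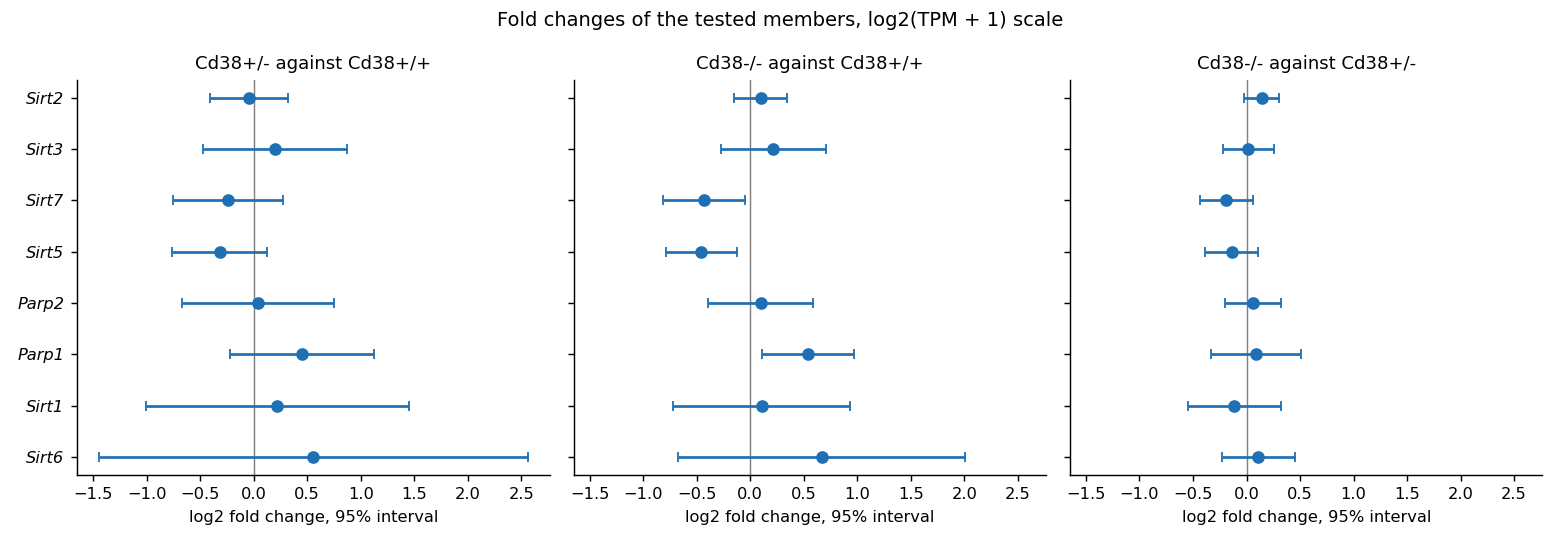
Log2 fold changes of the 8 tested members with their 95% intervals (horizontal axis, log2(TPM + 1) scale, shared by the panels) in the 3 comparisons. Only Sirt5, Sirt7 and Parp1 in Cd38-/- against Cd38+/+ have an interval that leaves out 0.

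By level, Sirt2 was the highest member in every library. Nnmt was the lowest in every library but Cd38+/+ replicate 2, which listed both Nnmt and Sarm1 at 0. In Cd38-/- libraries the order of mean TPM was Sirt2, Sirt3, Sirt7, Sirt5, Parp2, Parp1, Sirt1, Sirt6, Sarm1 and Nnmt. The neighbours Sirt3 and Sirt7, and Parp2 and Parp1, overlapped between libraries there and the other neighbours did not. In Cd38+/- the order was the same, and of the neighbours only Parp2 and Parp1 overlapped. In Cd38+/+ libraries the mean of Sirt7 lay above that of Sirt3. Here Sirt3 overlapped with Sirt7 and with Sirt5, Sirt1 with Sirt6 and Sirt6 with Sarm1. The 6 sirtuins summed to 422 to 521 TPM in Cd38+/+ libraries, 431 to 453 TPM in Cd38+/- and 427 to 470 TPM in Cd38-/-, so these ranges overlapped.

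Sirt5 is the mitochondrial sirtuin that removes succinyl and malonyl groups from metabolic enzymes, and its gene lies at chr13:43365496-43395203 on the plus strand. It held 64.0, 57.6 and 70.8 TPM in the Cd38+/+ libraries, and 50.3, 53.1 and 50.1 TPM in Cd38+/-. In Cd38-/- it ran from 40.8 through a median of 44.6 to 55.5 TPM. Every library of both mutant genotypes lay below every Cd38+/+ library. The means were 64.1 ± 6.64 (SD, n = 3), 51.2 ± 1.71 (SD, n = 3) and 46.6 ± 5.51 TPM (SD, n = 6). For Cd38-/- against Cd38+/+ the log2 fold change was -0.46 (SE 0.15, 95% interval -0.79 to -0.12), with a limma q of 0.0626, and the two-sided exact permutation test gave p = 0.0119, the smallest that 6 libraries against 3 allow. Libraries of 3.62% of all genes tested were all lower in this way. For Cd38+/- the log2 fold change was -0.32 (SE 0.20, limma q = 0.311, exact permutation p = 0.1, the smallest for 3 against 3), where 6.94% of all genes had every library lower.

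Sirt5 was the member closest to a call, and the call depended on the processing. Its q fell to 0.0269 after median-ratio scaling of the libraries, to 0.00936 after correction of each library for transcript length and GC content, to 0.029 with all 12 libraries in one fit, to 0.0286 without the filter on low values and to 0.0333 without Cd38+/+ replicate 2. Of all genes, these settings called 7.79%, 11.1%, 15.5%, 12.1% and 16.5%, in that order, against 8.28% as reported. The q of Sirt5 rose to 0.446 with library quality weights, where 0.00853% of all genes were called. Over 20 alternatives its log2 fold change stayed negative, from -0.77 to -0.38. The median of all genes tested moved from 0.15 as deposited to 0.03 under median-ratio scaling and -0.06 under the length and GC correction, so Sirt5 lay below that median by each scaling.

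Sirt3, the main mitochondrial deacetylase, lies at chr7:140863666-140882309 on the minus strand. It held 104, 47.6 and 102 TPM in Cd38+/+ libraries, and 89.9, 90.6 and 94.7 TPM in Cd38+/-. Cd38-/- libraries ran from 78.9 through 93.7 to 109 TPM. The genotypes overlapped, and the Cd38+/+ spread was set by replicate 2, the lowest of all 12 libraries. Its log2 fold change in Cd38-/- was 0.22 (SE 0.23, limma q = 0.328), and without Cd38+/+ replicate 2 it was -0.15 (limma q = 0.273). Exons of Sirt3 share 418 bases with Ric8a and 342 bases with Psmd13 on the opposite strand, and reads from these stretches cannot be told apart because the library kit does not mark strand.

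Sirt7, a nuclear sirtuin concentrated in the nucleolus, lies at chr11:120618372-120625240 on the minus strand. Its Cd38+/+ libraries held 96.5, 126 and 73.0 TPM, and its Cd38+/- libraries 75.7, 89.0 and 79.6 TPM. Cd38-/- libraries ran from 62.7 through 68.9 to 83.1 TPM. The lowest Cd38+/+ library, replicate 3, lay within the Cd38-/- range. For Cd38-/- against Cd38+/+ the log2 fold change was -0.43 (SE 0.18, 95% interval -0.81 to -0.04, limma q = 0.0957, exact permutation p = 0.0357). Without Cd38+/+ replicate 3 it was -0.62 with a limma q of 0.0137, a call at a setting that called 26.5% of all genes, and without Cd38+/+ replicate 2, the highest library, it was -0.23 with a limma q of 0.193. Sirt7 shares 124 exon bases with Mafg on the same strand.

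Sirt1 and Sirt6, nuclear deacetylases of histones and transcription factors, were low. Sirt1 (chr10:63319005-63381704, minus strand) held 6.95, 4.91 and 19.6 TPM in Cd38+/+, 12.7, 8.19 and 11.1 TPM in Cd38+/-, and 8.25 through 9.04 to 14.1 TPM in Cd38-/-. Its highest and lowest libraries were both Cd38+/+. The log2 fold change of Cd38-/- was 0.11 (SE 0.38, 95% interval -0.72 to 0.94, limma q = 0.507). Sirt6 (chr10:81621785-81627797, minus strand) held 12.97, 0.15 and 6.72 TPM in Cd38+/+, 6.67, 6.56 and 5.82 TPM in Cd38+/-, and 6.15 through 6.89 to 7.68 TPM in Cd38-/-. The 9 mutant libraries lay within a narrow band between the extremes of Cd38+/+. Its log2 fold change for Cd38-/- was 0.67 (SE 0.62, limma q = 0.302) and turned to -0.39 (limma q = 0.207) without Cd38+/+ replicate 2.

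Sirt2, a mostly cytoplasmic sirtuin that deacetylates tubulin and is well known in myelinating oligodendrocytes, lies at chr7:28766735-28788661 on the plus strand. It held 197, 186 and 249 TPM in Cd38+/+, 196, 205 and 208 TPM in Cd38+/-, and 216 through 223 to 234 TPM in Cd38-/-. Cd38+/+ spanned both mutant genotypes, while every Cd38-/- library lay above every Cd38+/- library. The means of the mutant genotypes were 224 ± 6.57 (SD, n = 6) and 203 ± 6.48 TPM (SD, n = 3), with a log2 fold change of 0.14 (SE 0.07, 95% interval -0.02 to 0.30, limma q = 0.362). The exact permutation test of this single gene gave p = 0.0119, and 2.85% of all genes tested had all Cd38-/- libraries higher. Against Cd38+/+, the log2 fold change of Cd38-/- was 0.10 (95% interval -0.15 to 0.35, limma q = 0.358). Sirt2 shares 42 exon bases with Nfkbib on the opposite strand.

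Markers of other cell types were set beside the members because bead isolation leaves other cells, and in bulk samples fewer cells of a type and less RNA per cell cannot be told apart. The summed TPM of 10 oligodendrocyte markers ran from 1329 to 7235 in Cd38+/+, 3114 to 11070 in Cd38+/- and 3194 to 17849 in Cd38-/-, with 6, 8 and 7 of these markers above a mean of 5 TPM. Sirt2 did not follow it: the library with the lowest sum, Cd38+/+ replicate 3, had the highest Sirt2. The sum of 6 markers of ependymal cells, the ciliated lining of the ventricles, was 3013, 3814 and 5936 TPM in Cd38+/+, 3673, 3119 and 3415 TPM in Cd38+/-, and 3962 through 5470 to 6211 TPM in Cd38-/-, and all 6 of these markers exceeded a mean of 5 TPM in each genotype. Over the 12 libraries, with Sirt2 and the sum both on the log2(TPM + 1) scale, Sirt2 and the ependymal sum had a Pearson's r of 0.825 (permutation p = 0.00111, Benjamini-Hochberg adjusted p = 0.0355) and a Spearman's rho of 0.867 (permutation p = 0.00053, adjusted p = 0.0339). Without the 2 libraries farthest from the median of the sum, r was 0.829, and within the 6 Cd38-/- libraries it was 0.851 (exact permutation p = 0.0292, adjusted p = 0.556). On the TPM scale without logarithms, an alternative chosen after seeing the data, r was 0.846 (permutation p = 0.00044, adjusted p = 0.0141). For the oligodendrocyte sum r on the log2 scale was -0.17 (permutation p = 0.6, adjusted p = 0.931). These were 2 of 64 relations, 8 members by 8 marker lists, looked at after the values had been seen. The gene most like Sirt2 over the 12 libraries among 11373 genes was Cfap126, a gene of motile cilia, with r = 0.953 between log2(TPM + 1) values, followed by Abhd14a with r = 0.953. The part of ependymal RNA in the Sirt2 difference was not tested.

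**Figure D3:**
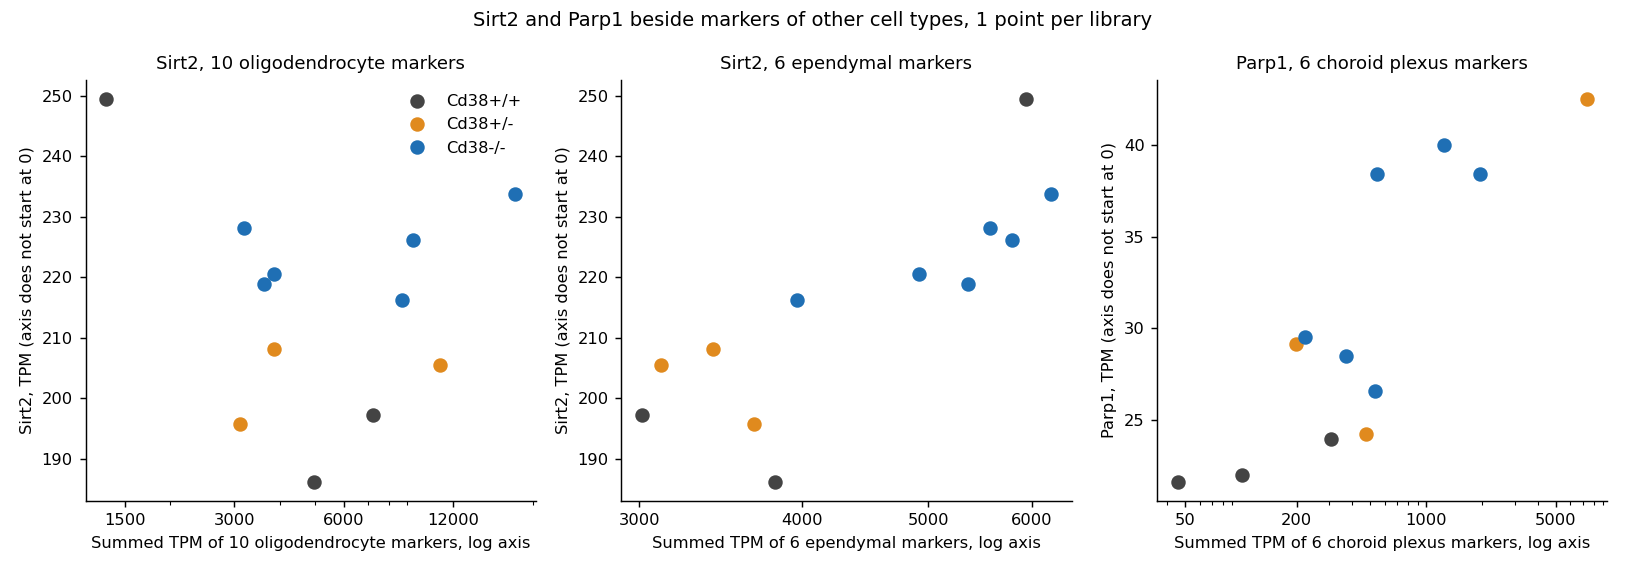
TPM of Sirt2 against the summed TPM of 10 oligodendrocyte markers (left) and of 6 ependymal markers (middle), and TPM of Parp1 against the summed TPM of 6 choroid plexus markers (right), with 1 point per library, log horizontal axes and vertical axes that do not start at 0; r is that of log2(TPM + 1) of gene and sum. Sirt2 is spread without order along the oligodendrocyte sum (r = -0.17), while it is higher where the ependymal sum is higher (r = 0.825), and Parp1 is higher where the choroid plexus sum is higher (r = 0.835).

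Parp1, the main polymerase that answers DNA breaks, lies at chr1:180568924-180601254 on the plus strand. It held 23.9, 21.6 and 22.0 TPM in Cd38+/+, and 42.5, 24.2 and 29.2 TPM in Cd38+/-. Cd38-/- libraries ran from 26.6 through 34.0 to 40.01 TPM. Every mutant library lay above every Cd38+/+ library, although Cd38+/- replicate 2 did so narrowly. Means were 22.5 ± 1.24 (SD, n = 3), 32.0 ± 9.49 (SD, n = 3) and 33.6 ± 6.01 TPM (SD, n = 6). For Cd38-/- against Cd38+/+ the log2 fold change was 0.54 (SE 0.20, 95% interval 0.11 to 0.97, limma q = 0.0738, exact permutation p = 0.0238), and 8.21% of all genes tested had all libraries higher. For Cd38+/- it was 0.45 (SE 0.30, limma q = 0.325, exact permutation p = 0.1), where 15.5% of all genes had all libraries higher. The length and GC correction brought the Cd38-/- value down to 0.22 (limma q = 0.202), and the fit without a filter on low values gave a limma q of 0.0436, a call at a setting that called 12.1% of all genes.

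Over the 12 libraries, Parp1 was higher where markers of choroid plexus, the tissue that secretes cerebrospinal fluid, were higher. The summed TPM of 6 such markers was 308, 45.6 and 102 in Cd38+/+, 7377, 473 and 199 in Cd38+/-, and 222 through 536 to 1946 in Cd38-/-. Means above 5 TPM were reached by 3 of the 6 markers in Cd38+/+, 6 in Cd38+/- and 5 in Cd38-/-, and 1 was at 0 in every Cd38+/+ library. The library with the highest Parp1, Cd38+/- replicate 1, also had the highest sum. A single marker, Ttr, made up 6537 TPM of that sum and 1642 TPM of the highest Cd38-/- sum, and was at 0 in Cd38+/+ replicates 2 and 3. The largest sums therefore rest mostly on Ttr. Pearson's r over the 12 libraries, again between log2(TPM + 1) values, was 0.835 (permutation p = 0.00029, adjusted p = 0.0186) and Spearman's rho 0.799 (permutation p = 0.00294, adjusted p = 0.0941). Without the 2 libraries farthest from the median r was 0.748, and within Cd38-/- it was 0.712 (n = 6, exact permutation p = 0.153, adjusted p = 0.883). The permutations of 12 libraries ignored genotype. Parp1 and the sum both had their lowest mean in Cd38+/+, so the r over 12 libraries also holds the difference between genotypes. On the TPM scale without logarithms r was lower, at 0.664 (permutation p = 0.00035, adjusted p = 0.0141). By Pearson's r on the log2 scale, Sirt2 with ependymal markers and Parp1 with choroid plexus markers were the 2 of 64 relations with an adjusted p under 0.05. The part of choroid plexus RNA in the Parp1 difference was not tested. The genes most like Parp1 were Smc5, a subunit of a chromosome maintenance complex (r = 0.968), and Ociad2 (r = 0.945).

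Parp2, the smaller relative of Parp1 that also answers DNA breaks, lies at chr14:50807841-50821301 on the plus strand. It held 27.8, 25.4 and 51.8 TPM in Cd38+/+, and 36.6, 30.8 and 35.6 TPM in Cd38+/-. Cd38-/- libraries ran from 31.4 through 36.6 to 40.3 TPM. The mutant libraries lay between the extremes of Cd38+/+ and the genotypes overlapped. The log2 fold change of Cd38-/- was 0.10 (SE 0.22, 95% interval -0.39 to 0.59, limma q = 0.464), with a sign that changed under median-ratio scaling to -0.02 and under the length and GC correction to -0.09.

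Sarm1, the NAD hydrolase that drives axon degeneration in neurons, lies at chr11:78472330-78497754 on the minus strand. It held 0.36, 0 and 3.06 TPM in Cd38+/+, 5.35, 3.25 and 4.36 TPM in Cd38+/-, and 2.35 through 3.94 to 5.39 TPM in Cd38-/-. All Cd38+/- libraries lay above Cd38+/+, narrowly at 3.25 against 3.06 TPM, while the lowest Cd38-/- library lay below Cd38+/+ replicate 3. Among the genes tested, which leave out Sarm1, 15.5% had every Cd38+/- library higher. Since 1 Cd38+/+ library listed it at 0, no mean is given for that genotype. The exact permutation test gave p = 0.0238 for Cd38-/- and p = 0.1 for Cd38+/- against Cd38+/+. When the filter on low values was left out, Sarm1 had a limma q of 0.0379 in Cd38-/- and 0.144 in Cd38+/-, and 12.1% of all genes were called in Cd38-/-.

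Nnmt (chr9:48591877-48605153, minus strand) was listed at 0 in all 3 Cd38+/+ libraries. It held 0.12, 0.40 and 0.27 TPM in Cd38+/- and 0.26 through 0.75 to 1.16 TPM in Cd38-/-. These are traces, and no fold change is given against a genotype listed at 0. Without the filter on low values its limma q was 0.0144 in Cd38-/- and 0.0813 in Cd38+/- against Cd38+/+. Both Sarm1 and Nnmt belong to the low genes for which the Cd38+/+ libraries held fewer values above 0 than the mutant libraries, and the part of that difference in detection was not tested.

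**Figure D4:**
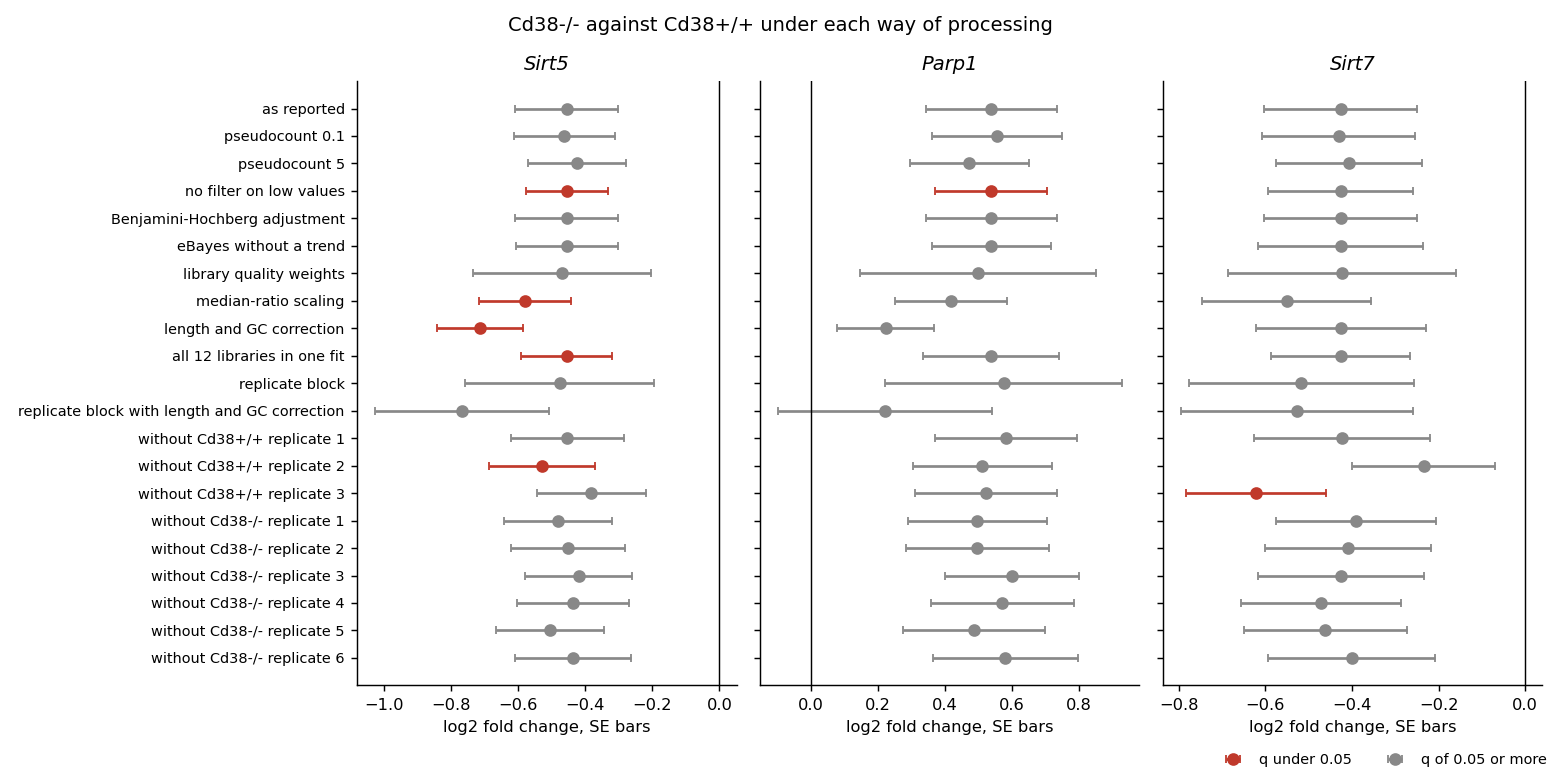
Log2 fold change of Sirt5, Parp1 and Sirt7 in Cd38-/- against Cd38+/+ (horizontal axes, bars are standard errors) as reported and under 20 alternatives (vertical axis); red marks a limma q under 0.05. Sirt5 is red in 5 alternatives, Parp1 in 1 and Sirt7 in 1, and all 3 keep their sign.

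The rest of the pathway was read from lists of related genes, whose calls in Cd38-/- against Cd38+/+ stand beside the 8.28% of all genes called there. Of 15 other PARPs and sirtuins, 12 were tested and none was called in any comparison. Their highest members were Tiparp, a mono-ADP-ribosyltransferase induced by the aryl hydrocarbon receptor (log2 fold change 0.02, limma q = 0.542 in Cd38-/- against Cd38+/+), and Tnks2, a tankyrase (0.14, limma q = 0.41). In Cd38-/- against Cd38+/- all 12 had a log2 fold change below 0, as had 6314 of all 11563 genes tested. The median of the 12 was -0.12 beside -0.02 over all genes, and none of the 12 had an unadjusted p under 0.05. Outside the rule for named genes and chosen after its values were seen, Parp11 came closest to a call in Cd38-/- against Cd38+/+ (-0.81, SE 0.25, limma q = 0.0512). Every Cd38-/- library was lower, as for 3.62% of all genes tested.

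Of 7 NAD glycohydrolases and ADP-ribosyltransferases, 2 were tested, Cd38 and Art3, and both were called in Cd38-/- against Cd38+/+. The call of Cd38 was set by the design, which disrupts this gene. Only the call of Art3 can stand beside the 8.28% of all genes. Cd38 had a log2 fold change of -2.96 (limma q = 0.00116). It was called in 19 of 20 alternatives, all but library quality weights (limma q = 0.109). Art3, a member of the ecto-ADP-ribosyltransferase family, had a log2 fold change of 0.94 (limma q = 0.0433). Art3 held 47.1, 20.3 and 21.8 TPM in Cd38+/+, 71.9, 53.0 and 37.1 TPM in Cd38+/-, and ran from 36.4 to 75.0 TPM in Cd38-/-. It overlapped between the genotypes through Cd38+/+ replicate 1. Its call held in 6 of 20 alternatives.

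Of 9 partners of PARPs in DNA repair, all were tested and 1 was called in Cd38-/- against Cd38+/+, Chd1l, a chromatin remodeller recruited by poly(ADP-ribose). It held 16.9, 12.4 and 16.8 TPM in Cd38+/+ and 20.6 to 31.6 TPM in Cd38-/-, without overlap, as 8.21% of all genes had every Cd38-/- library higher, for a log2 fold change of 0.72 (SE 0.21, limma q = 0.0433), a call in 9 of 20 alternatives. Hpf1, the factor that directs Parp1 to serine and an abundant partner, had a log2 fold change of -0.02 (limma q = 0.55). The list's median was 0.10 beside 0.15 over all genes. Of 10 enzymes that remove or cleave ADP-ribose, 9 were tested and none was called, with Nudt9 at -0.28 (limma q = 0.119) and Adprh at 0.38 (limma q = 0.122) the most abundant.

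Among 4 regulators of Sirt1, none was called, with Usp22 at 0.23 (limma q = 0.286) and Ccar2, an inhibitor of Sirt1, at 0.01 (limma q = 0.555). Of 12 genes, mostly substrates of the mitochondrial sirtuins, 11 were tested and 1 was called in Cd38-/- against Cd38+/+. This was Acadl, the long-chain acyl-CoA dehydrogenase of fatty acid oxidation (log2 fold change 0.42, SE 0.12, limma q = 0.0418). It held 151, 113 and 128 TPM in Cd38+/+ and 162 to 186 TPM in Cd38-/-, again without overlap. Every Cd38-/- library was higher for 8.21% of all genes tested. Acadl was called in 6 of 20 alternatives. Idh2 (0.26, limma q = 0.131) and Sdha (0.09, limma q = 0.359), the most abundant substrates, were not called.

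Of 5 genes around the methyl donor and the product of Nnmt, all were tested and 1 was called in Cd38-/- against Cd38+/+. This was Ahcy, which clears what is left of the donor after methyl transfer. It held 0.48, 0.09 and 22.9 TPM in Cd38+/+ and 18.03 to 21.0 TPM in Cd38-/-, so the third Cd38+/+ library lay above all of Cd38-/-. Its log2 fold change of 2.63 (SE 0.74, limma q = 0.0401) rests on the low Cd38+/+ replicates 1 and 2, and without Cd38+/+ replicate 3 it was 4.04 (limma q = 1.23e-05). It was called in 7 of 20 alternatives. Mat2a, which makes the donor (0.25, limma q = 0.187), and Adk (-0.22, limma q = 0.214) were the most abundant of the list and were not called.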

How the data were processed

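RNA of midbrain astrocytes was measured in 12 libraries. Per the methods and the submitters' processing notes, the authors trimmed reads with Trim Galore 0.6.4, mapped them to mm10 with STAR 2.7.1a and estimated expression per gene with RSEM 1.2.28; the annotation is not given in the sources used here. The deposited values are TPM, 1 column per library, not pooled, for 20614 genes. TPM keeps no read depth, so no counting error can be given and a value at 0 sets no upper limit.

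Genes whose mean exceeded 5 TPM in 1 or both compared genotypes entered a comparison, and limma 3.58.1 under R 4.3.3 (eBayes with a trend) modelled their log2(TPM + 1) in those genotypes alone. Fold changes on this scale understate those of low genes. Storey q-values were taken over all genes tested (11763, 11722 and 11563), with lambda from 0.05 to 0.95 in steps of 0.05. A call needed q under 0.05 and a 1.2-fold change. This model was a choice, since the methods name no test and the processing notes list a count-based differential expression package with no role given. Single genes were also compared by two-sided exact permutation tests, which cannot go below 0.1 with 3 libraries against 3 or 0.0119 with 6 against 3. Correlations were between log2(TPM + 1) of a gene and log2 of the summed marker TPM + 1. Their p-values came from 100000 permutations of 12 libraries regardless of genotype, or from exact permutations within Cd38-/-. On the TPM scale 2 of the correlations were repeated, an alternative added after seeing the data. The procedure was tested on simulated data.

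All 10 members, Cd38, the called genes and the 2 most abundant genes of each pathway list were named (1 of these is not reported here), and the 2 genes most like each member were computed. Members, lists and markers were chosen with earlier results of these data known. Positions are from GENCODE vM21 on GRCm38 (mm10), and length and GC content were found for 20503 genes. Promoter windows are from RefSeq on GRCm38.p6 and covered 9 of 10 members, all but Nnmt. Alternatives were pseudocounts of 0.1 and 5, no filter, Benjamini-Hochberg adjustment, no trend, library quality weights, median-ratio scaling, a length and GC correction (spline, 4 degrees of freedom), a joint fit of all 12 libraries, a block for the replicate number, the block with that correction, and leaving out each library. Plots were made in Python 3.11.15 with matplotlib 3.10.9.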

Additional observations from a re-analysis of the deposited data

Results flagged for a closer look

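Sirt1 in the Cd38-/- libraries held 1 sample far from the others. Replicate 5 had 14.1 TPM, while the other 5 libraries had 8.25 to 9.85 TPM, and the gap took 0.672 of the whole range on the log2(TPM + 1) scale, above Dixon's critical value of 0.625 for 6 samples. Chance flags about 1 in 20 groups, and 10 members were examined in Cd38-/-.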

How the results depend on the processing

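No member was called in Cd38+/- against Cd38+/+ or in Cd38-/- against Cd38+/- under any alternative. In Cd38-/- against Cd38+/+, 4 members were called without the filter on low values (Sirt5, Parp1, Sarm1 and Nnmt; 12.1% of all genes), 1 (Sirt5) under median-ratio scaling (7.79%), 1 (Sirt5) under the length and GC correction (11.1%) and 1 (Sirt5) with all 12 libraries in one fit (15.5%). Leaving out 1 library gave 0 to 1, namely Sirt5 without Cd38+/+ replicate 2 (16.5% of all genes) and Sirt7 without Cd38+/+ replicate 3 (26.5%). The calls over all genes in this comparison were 970, against 1 with library quality weights, 2 with the replicate block, 2283 without the filter and 3119 without Cd38+/+ replicate 3. With quality weights, calls between the mutant genotypes rose from 4 to 3120, and there Sirt2 (limma q = 0.0361), Sirt6 (0.0412) and Sirt7 (0.0308) fell under 0.05 with changes smaller than 1.2-fold. The causes were not tested.

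Same-numbered libraries did not deviate together as a rule, although replicate 1 of the mutant genotypes did. Correlations of same-numbered libraries were -0.0029, 0.042 and 0.051 for Cd38+/- with Cd38+/+, and -0.095, -0.041 and -0.057 for Cd38-/- with Cd38+/+. Between the mutant genotypes they were 0.50, -0.32 and -0.0031. Not every library correlated best with its own number, and Cd38-/- replicate 4 reached 0.53 with Cd38+/- replicate 2. With the replicate block 0 members were called in each comparison, and the log2 fold change in Cd38-/- against Cd38+/+ was -0.48 for Sirt5 (limma q = 0.426), 0.58 for Parp1 (limma q = 0.441) and -0.52 for Sirt7 (limma q = 0.387). The block turned Sirt3 to -0.093 between the mutant genotypes.

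Members near 0 changed sign. In Cd38+/- against Cd38+/+, Parp2 had a log2 fold change of -0.10 under median-ratio scaling and -0.042 under the length and GC correction, with and without the replicate block, and Sirt1 had -0.17 in both. In Cd38-/- against Cd38+/+, median-ratio scaling gave -0.021 for Parp2, -0.0053 for Sirt1 and -0.028 for Sirt2, the length and GC correction -0.085, -0.26 and -0.050, and that correction with the block -0.032, -0.38 and -0.048. Between the mutant genotypes, Parp2 was -0.022 with quality weights and -0.041 under the length and GC correction, and Sirt3 was -0.046 under that correction and -0.16 with the block as well.

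Leaving out 1 library turned further signs. In Cd38+/- against Cd38+/+ the log2 fold change ran from -0.15 to 0.35 for Parp2, -0.15 to 0.75 for Sirt1, -0.13 to 0.083 for Sirt2, -0.16 to 0.39 for Sirt3 and -0.50 to 1.30 for Sirt6. In Cd38-/- against Cd38+/+ it ran from -0.087 to 0.41 for Parp2, -0.27 to 0.64 for Sirt1, -0.15 to 0.41 for Sirt3 and -0.39 to 1.41 for Sirt6. Between the mutant genotypes it ran from -0.086 to 0.31 for Parp1, -0.014 to 0.11 for Parp2, -0.28 to 0.014 for Sirt1 and -0.031 to 0.062 for Sirt3. Against Cd38+/+ the sign turned on leaving out a Cd38+/+ library, apart from Parp2 in Cd38+/-, which also turned without Cd38+/- replicate 1. Sirt5 and Sirt7 kept their sign in every alternative, and Parp1 did in the comparisons with Cd38+/+. In Cd38-/- against Cd38+/+ the 95% intervals of Sirt1 (-0.72 to 0.94) and Sirt6 (-0.67 to 2.01) were wide and held 0.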

Other observations

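Sirt3 and Sirt5 both act in mitochondria, and a scaling factor shared by all genes of a library cancels in the ratio of their TPM. The length and GC correction shifts genes differently and was not applied to this ratio. As deposited, the ratio was 0.827 to 1.63 in Cd38+/+, 1.71 to 1.89 in Cd38+/- and 1.66 to 2.52 in Cd38-/- libraries, so every mutant library lay above every Cd38+/+ library. Sirt5 alone was already lower in every mutant library, so the ratio adds no separate evidence. No share over other gene pairs was computed. The ratio was looked at after the values had been seen and was not tested, and the lowest Cd38+/+ ratio came from replicate 2, where Sirt3 was low. Sirt2 took 40.9% to 47.9% of the summed TPM of the 6 sirtuins in Cd38+/+, 45.4% to 46.3% in Cd38+/- and 46.9% to 51.6% in Cd38-/-, with no overlap between the mutant genotypes. The ratio of Parp2 to Parp1 was 1.16 to 2.36 in Cd38+/+, 0.86 to 1.27 in Cd38+/- and 0.909 to 1.52 in Cd38-/-, and these ranges overlapped.

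The spread within genotypes differed between members. The coefficient of variation of Parp1 was 5.53% in Cd38+/+ and 29.7% in Cd38+/-. For Sirt2 it was 16.0% in Cd38+/+ and 2.93% in Cd38-/-, and for Sirt3 37.8% and 11.6%. Of the 8 members other than Sarm1 and Nnmt, Parp1 and Sirt5 had a lower coefficient in Cd38+/+ than in Cd38-/-.

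The genes most like the other members over the 12 libraries, among 11373 genes, were Rnf20 and Gli3 for Sarm1 (r = 0.978 and 0.977), Samd10 and Ubxn2b for Parp2 (0.945 and 0.942), Pms1 and Hdgfl3 for Sirt1 (0.953 and 0.924), Nsdhl and Rab29 for Sirt3 (0.960 and 0.958), Pwwp3a and Nr2f1 for Sirt5 (0.924 and 0.918), Mrps30 and Hmox2 for Sirt6 (0.993 and 0.991), Dcun1d5 and Nudt22 for Sirt7 (0.930 and 0.922), and Anapc15 and Thoc7 for Nnmt (0.945 and 0.852). They were picked as the highest of many, so no test is given.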
